A study of Mus musculus with 2 samples.

Results

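The cell cycle genes described here are 44 genes of 33696 in both count matrices, chosen by symbol from a list of proliferation markers, replication genes and mitotic genes. A cell was called cycling when *Mki67* and *Top2a* together had at least 2 UMIs in it, and the called cells were counted in each cell type of each library. UMIs (unique molecular identifiers) count captured RNA molecules, and CPM (counts per 1000000) is the number of UMIs of a gene over all UMIs of the same cells, in that unit. All 44 genes were found in both matrices with at least 20 UMIs over both libraries, and 53 of 10269 retained cells were called in the Control library and 414 of 19734 in the AngII+HS library.

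Single-cell RNA sequencing was performed on the suprarenal abdominal aorta of 5-month-old male C57BL/6J mice in a model of abdominal aortic aneurysm (AAA). Control mice received normal saline. AngII+HS mice received AngII at 1500 ng/kg/min from osmotic minipumps and drinking water with 0.9% NaCl and 0.2% KCl, and both groups were collected at day 28. Each group is 1 library, made from the pooled aortas of 5 mice by the design text, although the sample protocol speaks of 1 control mouse and 2 treated mice, so the spread between mice is unknown and no difference between the libraries was tested. The intervals given are exact 95% intervals that cover counting error only. The retained cells had a median of 7265 UMIs in Control and 3069.5 in AngII+HS. Each library came with a barcode list as long as the matrix of the other library, and 67 barcodes stand in both lists. The matrices were assigned by their own record, on which every direction between the libraries rests. Cell types are "like" their names only by fixed markers: 20 of 24 clusters were named as 11 types and 4 clusters stayed unnamed.

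Cells divide in an ordered cycle. In G1 the E-type cyclins and E2F factors commit a cell to S phase, in which the MCM helicase, its loading factors and PCNA copy the DNA. In G2 and M, CDK1 with cyclins A and B, the Aurora and Polo kinases, the centromere proteins and the spindle motors separate the chromosomes, and a ubiquitin ligase then destroys the mitotic proteins. *Mki67* encodes the surface protein of mitotic chromosomes used as the general marker of proliferation, and *Top2a* the topoisomerase that untangles DNA before mitosis. In the aortic wall most smooth muscle cells, fibroblasts and endothelial cells are at rest, while leukocytes can enter the wall from blood or divide in it.

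The promoters of the members carry known cell cycle elements, and sequences are shown for genes on which the results below turn. RefSeq promoter windows of GRCm38.p6, from 250 bases before to 50 after the start of the gene, were matched for 36 of 44 members. The cell cycle homology region (CHR, TTTGAA on either strand) lay in the window of 15 of 20 members that act in G2 and M (75.0%), of 1 of 14 members that act at G1/S or in S phase, and of 20.2% of 27025 genes. The CCAAT box, on either strand, lay in 18 of 20 G2/M windows and in 41.1% of all genes. An E2F octamer (TTTCCCGC, TTTGGCGC, TTTCGCGC or TTTGCCGC, on either strand; overlapping matches are possible) lay in 6 of 8 replication gene windows (75.0%), in 1 of 20 G2/M windows and in 2.6% of all genes. A match of letters is a description and not a site of binding. In the following 120 bases before the start of G2/M genes, both calling genes included, capitals mark each CHR and CCAAT box.

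Top2a, chr11:99024190-99024309, minus strand: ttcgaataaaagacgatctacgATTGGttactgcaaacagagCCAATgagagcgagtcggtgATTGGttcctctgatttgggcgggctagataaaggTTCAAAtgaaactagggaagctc
Mki67, chr7:135716380-135716499, minus strand: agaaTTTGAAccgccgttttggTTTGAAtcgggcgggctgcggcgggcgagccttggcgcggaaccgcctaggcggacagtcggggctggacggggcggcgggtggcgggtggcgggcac
Cdk1, chr10:69352913-69353032, minus strand: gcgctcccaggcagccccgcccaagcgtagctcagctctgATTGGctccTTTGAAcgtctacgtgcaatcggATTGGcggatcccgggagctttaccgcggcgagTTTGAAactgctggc
Ube2c, chr2:164769809-164769928, plus strand: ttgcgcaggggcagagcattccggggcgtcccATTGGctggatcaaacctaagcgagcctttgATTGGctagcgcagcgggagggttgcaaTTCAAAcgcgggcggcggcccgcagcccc
Cdc20, chr4:118437344-118437463, minus strand: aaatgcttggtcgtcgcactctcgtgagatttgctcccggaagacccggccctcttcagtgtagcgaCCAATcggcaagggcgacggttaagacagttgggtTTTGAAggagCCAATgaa

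In the 2 replication gene promoters below, capitals mark each E2F octamer. *Mcm5* and *Mcm6* are subunits of the same helicase. Over all cells their ratios between the libraries differed, as given below beside values within cell types.

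Mcm5, chr8:75109349-75109508, plus strand: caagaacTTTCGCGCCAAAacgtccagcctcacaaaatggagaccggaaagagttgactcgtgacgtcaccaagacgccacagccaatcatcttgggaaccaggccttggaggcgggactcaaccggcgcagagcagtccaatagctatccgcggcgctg
Mcm6, chr1:128359706-128359825, minus strand: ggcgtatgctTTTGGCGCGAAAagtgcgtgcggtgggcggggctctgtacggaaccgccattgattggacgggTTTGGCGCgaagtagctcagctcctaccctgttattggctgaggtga

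Cycling cells were a larger share of the AngII+HS library than of the Control library. The called share was 0.516% (0.387 to 0.675%) in Control and 2.10% (1.90 to 2.31%) in AngII+HS, a log2 ratio of 2.02 (1.61 to 2.46). With every cell thinned to 2000 UMIs it was 0.135% in Control, with 1405 shallower cells left out, and 1.22% in AngII+HS, with 7068 left out. The mix of cell types also differed: VSMCs made up 49.4% of the cells in Control but 3.21% in AngII+HS. When the AngII+HS shares of the 11 groups of cells present in both libraries, the unnamed cells among them, were weighted by the Control mix, the called share of AngII+HS went from 2.01% to 1.27%. The libraries thus stood apart in the called share at equal depth and, separately, at equal mix, but the 2 were not made equal together. Within types, the log2 ratios of thinned called shares had intervals that held 0. They were 0.83 (−0.6 to 2.74) in macrophages, 1.7 (−0.57 to 4.95) in VECs, 2.14 (−0.64 to 7.57) in fibroblasts and 1.42 (−4.29 to 5.06) in VSMCs.

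Not every called cell carried the rest of the mitotic program. The 24 other G2/M members, *Stmn1* left out because resting neural cells express it, gave a readout that did not enter the call. Of the cells of both libraries with exactly 2 UMIs of *Mki67* and *Top2a*, 5.38% of 186 had at least 5 UMIs of these 24 genes. That share was 30.5% of 95 cells with 3 to 4 UMIs, 79.8% of 89 cells with 5 to 9 UMIs and 99.0% of 97 cells with 10 or more. Cells that were called and also had at least 5 such UMIs are named G2/M-supported below, a class that was added after the values had been seen. They were 14 cells in Control (0.136%, 0.0746 to 0.229%) and 192 in AngII+HS (0.973%, 0.841 to 1.12%), a log2 ratio of 2.84 (2.05 to 3.73). At the Control mix of cell types the supported share of AngII+HS was 0.832% against 0.899% at its own mix.

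Proliferation in the AngII+HS aorta was spread over immune, endothelial and mesenchymal lineages. Plasma cells had the highest supported share, 10.9% (6.35 to 17.1%) of 147 cells, and no plasma cell was retained in Control. DCs followed at 2.71% (1.49 to 4.5%), B cells at 2.26% (1.44 to 3.37%), T cells at 1.79% (1.10 to 2.76%), VECs at 1.62% (0.995 to 2.50%) and macrophages at 1.42% (1.10 to 1.82%). The interval of plasma cells lay above all others, while those of DCs, B cells, T cells, VECs and macrophages overlapped each other. VSMCs at 0.790% (0.257 to 1.83%) and fibroblasts at 0.486% (0.308 to 0.728%) came lower, and no neutrophil of 4646 was supported, which allows a share of up to 0.0646%. Support was not thinned to equal depth, and median depth ran from 1268 UMIs in neutrophils to 10155 in plasma cells. The order of types and the neutrophil limit were thus found at unequal depth. Among all 192 supported cells, macrophages made up 32.8% (26.2 to 39.9%), B cells and fibroblasts 12.0% each, T cells and VECs 10.4% each, plasma cells 8.33% and DCs 7.29%. The order of the lower types rests on doublet removal: with no doublets removed, the supported shares were 1.86% in VSMCs and 1.23% in fibroblasts, against 1.44% in macrophages and 1.73% in T cells. Plasma cells stayed highest at 13.5%, and were at 22.9% of 170 cells when cell cycle genes were kept in the clustering, in which no B cell of AngII+HS was supported. The plot of shares by cell type shows both readouts.

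**Figure D1:**
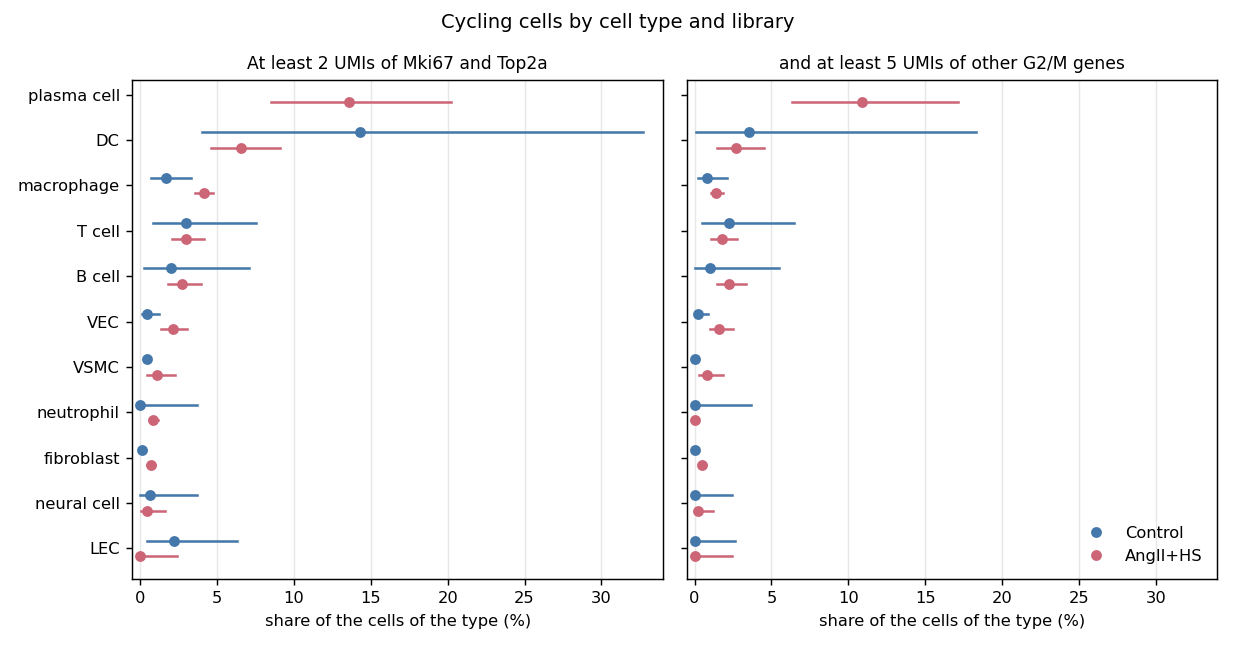
Share of cycling cells in percent of each cell type (horizontal axis) by type and library, with all called cells on the left and the G2/M-supported cells on the right; points are shares and lines exact 95% intervals for counting error. Plasma cells were in the AngII+HS library only and had the highest supported share, and neutrophils kept called cells but no supported cell.

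Neutrophils, which leave the bone marrow after their last division, had called cells as well. Of 4646 neutrophils of AngII+HS, 39 were called (0.839%, 0.598 to 1.15%) at a median of 1268 UMIs per cell, and 36 of these 39 cells were called by *Mki67* alone. A median of 0 UMIs of the 24 other G2/M genes was found in them, and 38 of 39 had at most 1. Thinned to 2000 UMIs, 4 of 288 neutrophils were called (1.39%, 0.38 to 3.52%), with 4358 cells left out as shallower. In Control 0 of 98 neutrophils were called, which allows a share of up to 3.06%. The called share alone was thus no larger in the fibroblasts of either library and in the VSMCs and VECs of Control than in neutrophils. After thinning, where the neutrophil share rests on 4 called cells, this also held by value for the fibroblasts, VECs and VSMCs of AngII+HS. These types had lower *Mki67* levels than neutrophils in their uncalled cells, as given below, so the neutrophil share is not a floor for them. The lineages are compared by the supported class, in which no neutrophil was found. That class was not thinned, and its cells were deep, with a median of 10923 UMIs in AngII+HS. Shallow cells, such as neutrophils, could reach its limit of 5 UMIs less readily.

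Macrophages held the most called cells of AngII+HS, 183 of 414 (44.2%, 39.4 to 49.1%). Their called share was 1.68% (0.727 to 3.28%) of 477 cells in Control and 4.14% (3.57 to 4.77%) of 4423 in AngII+HS, a log2 ratio of 1.3 (0.29 to 2.54). Median depths of the type were alike, 4219 UMIs in Control and 4049 in AngII+HS, and the called shares after thinning to 2000 UMIs were 0.980% and 1.74%. The supported share was 0.839% (0.229 to 2.13%) in Control, 4 cells, and 1.42% in AngII+HS, 63 cells, and the log2 ratio of 0.76 had an interval from −0.66 to 2.68. The Control value of 4 cells leaves the ratio of supported macrophages open to either direction. Of the 183 called macrophages 93 were called by *Mki67* alone, and 104 had at most 1 UMI of the other G2/M genes.

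Within macrophages the supported cells lay in a single cluster. Cluster 3, led by the complement C1q genes, held 2379 cells of AngII+HS with a median of 4051 UMIs, of which 134 were called (5.63%) and 63 supported (2.65%, 2.04 to 3.38%). Cluster 6, led by *Arg1* and closest to the monocyte markers, held 2044 cells with a median of 4043 UMIs, of which 49 were called (2.40%) and 0 supported (upper bound 0.180%). Of its 49 called cells, 48 had at most 1 UMI of the other G2/M genes. The clustering had left out 100 listed cell cycle genes, and at near equal depth these clusters differed in the mitotic genes and not only in the call. The plot of called cells by type shows this contrast beside neutrophils, DCs, plasma cells, B cells, VECs and fibroblasts.

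**Figure D2:**
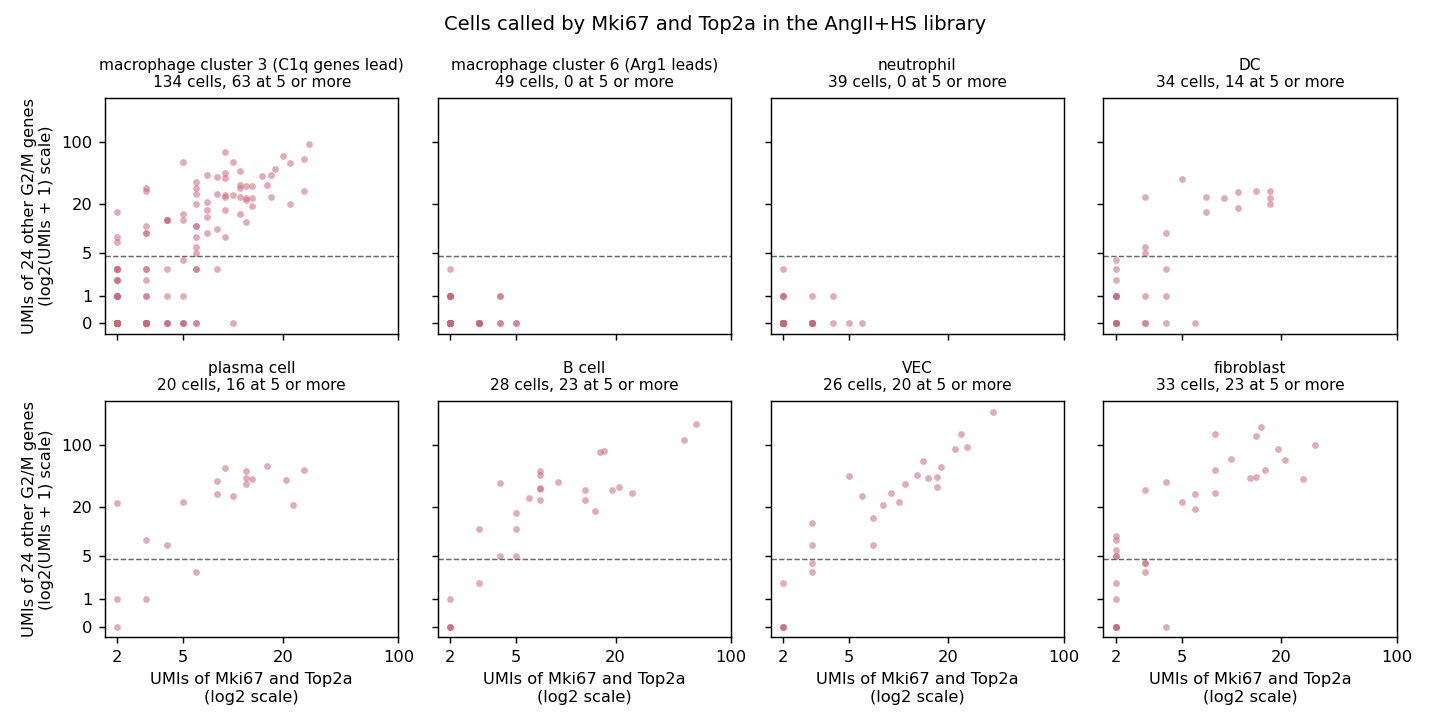
Each point is a called cell of the AngII+HS library, by its UMIs of *Mki67* and *Top2a* (horizontal, log2 scale) and of the 24 other G2/M genes (vertical, log2 of UMIs + 1), with a dashed line below 5 UMIs. Cells of macrophage cluster 6 and of neutrophils lie below the line, while most called B cells, plasma cells, VECs and fibroblasts lie above it.

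The supported macrophages of cluster 3 had low levels of resident and of monocyte genes. *Lyve1* and *Cd163*, genes of resident perivascular macrophages, had 0 UMIs in the 63 cells against 55.1 and 73.6 CPM in the other cells of the cluster, which is at least 10.9-fold and 14.5-fold lower. These genes were seen in 10.5% and 10.9% of the other cells of the cluster, and 0 of 63 cells allows a share of up to 4.76% of cells with a UMI. *Folr2*, another resident gene, was at 20.3 against 90.3 CPM (log2 ratio −2.16, −3.11 to −1.34). *Ly6c2*, a gene of inflammatory monocytes, was at 6.75 against 122 CPM (−4.18, −6.05 to −2.82) and *Plac8* at 32.1 against 219 CPM (−2.77). The chemokine receptor *Ccr2* was nearer, at 105 against 141 CPM (−0.43, −0.82 to −0.06), and so was the lipid receptor *Trem2* at 267 against 333 CPM (−0.32). *Gpnmb*, a lysosomal glycoprotein gene, was at 277 against 298 CPM, with an interval on both sides of 0 (−0.34 to 0.12). The other genes listed with *Trem2* and *Gpnmb* were lower. *Spp1* was at 407 against 811 CPM (−0.99, −1.19 to −0.81), *Arg1* at 32.1 against 54.5 (−0.76, −1.51 to −0.11) and *Fabp5* at 537 against 823 (−0.62, −0.78 to −0.46). MHC class II genes were lower as well, *H2-Ab1* at 1450 against 2481 CPM (−0.77) and *Cd74* at 3922 against 6658 CPM (−0.76).

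DCs present antigen to T cells. In AngII+HS 34 of 517 were called (6.58%, 4.60 to 9.07%) and 14 supported. Of the 34, 16 had at most 1 UMI of the other G2/M genes, with a median of 2.5 UMIs. In Control, 4 of 28 DCs were called (14.3%, 4.03 to 32.7%) and 1 supported, and so few cells could not show a difference.

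B cells and T cells of AngII+HS had cycling cells that mostly carried the other mitotic genes. B cells had 28 called cells of 1018 (2.75%, 1.84 to 3.95%), with a median of 27 UMIs of the other G2/M genes, and 23 of them were supported. T cells had 33 of 1115 (2.96%, 2.05 to 4.13%), with a median of 12 UMIs, and 20 were supported. Thinned to 2000 UMIs, the called shares were 2.97% in B cells and 2.70% in T cells. Control had 2 called of 99 B cells (2.02%) and 4 of 133 T cells (3.01%), and the log2 ratios of 0.45 (−1.54 to 3.56) and −0.02 (−1.51 to 1.93) had wide intervals. The libraries could thus not be told apart in the share of cycling lymphocytes.

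The supported B cells carried genes of germinal centre B cells, which divide rapidly. *Fas*, a death receptor of germinal centre cells, was at 110 CPM against 26.5 in the other B cells (log2 ratio 2.05), and *Bcl6*, the germinal centre transcription factor, at 124 against 52.9 CPM (1.23). Genes of antibody secretion were higher as well, the J chain gene *Jchain* at 231 against 37.0 CPM (2.65) and *Mzb1* at 683 against 230 CPM (1.57). *Prdm1*, the plasma cell factor, was at 8.68 against 4.56 CPM on 3 UMIs, with an interval from −1.57 to 2.88. In T cells *Ctla4*, an inhibitory receptor of regulatory and activated T cells, was at 850 against 241 CPM (1.82, 1.54 to 2.08), while *Il2ra* was at 74.5 against 240 CPM (−1.69) and *Trdc*, the gamma delta T cell receptor gene, at 24.8 against 98.8 CPM (−1.99). *Cd4*, *Cd8a* and *Foxp3* had intervals that held 0. These ratios pool the T cell clusters. Within cluster 10, which held 13 of the 20 supported T cells, *Ctla4* stayed higher (2.0, 1.61 to 2.37). There the interval of *Il2ra* held 0 (−1.23, −3.52 to 0.35), and *Trdc* had 0 UMIs in the supported cells and no ratio.

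Of 147 plasma cells, 20 were called (13.6%, 8.51 to 20.2%) and 16 supported, at a median of 10155 UMIs per cell in the type. The called cells had a median of 27.5 UMIs of the other G2/M genes. Thinned to 2000 UMIs, the called share was 5.80% (2.54 to 11.1%), which was still the highest of all types. Its interval then overlapped those of B cells (1.67 to 4.85%), T cells (1.66 to 4.14%) and DCs (1.27 to 4.22%). With no doublets removed, Control had 4 barcodes of the type, of which 3 were called, and AngII+HS had 222, of which 35 were called.

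VECs, the endothelial cells of blood vessels, had a called share of 0.478% (0.130 to 1.22%) of 837 cells in Control and 2.11% (1.38 to 3.08%) of 1231 in AngII+HS, a log2 ratio of 2.14 (0.62 to 4.12). Supported cells were 2 (0.239%, 0.0290 to 0.860%) and 20 (1.62%), at median depths of 4263 and 3983 UMIs, and the thinned called shares were 0.286% and 0.931%. In AngII+HS only 3 of 26 called VECs had at most 1 UMI of the other G2/M genes. Both clusters held them, with 16 supported of 819 cells in the cluster led by *Fabp4* and *Gpihbp1*, genes of capillary fat uptake, and 4 of 412 in the cluster with *Gja5*, an arterial gap junction gene. Over both clusters, *Gpihbp1* was at 30.9 CPM in the supported cells against 240 in other VECs (log2 ratio −2.96). *Gja5* was at 28.1 against 202 CPM (−2.84), but 16 of the 20 supported cells lay in the *Fabp4* and *Gpihbp1* cluster. Within that cluster *Gja5* was low in all cells, at 3.22 against 4.49 CPM (−0.48, −5.86 to 2.19). *Gpihbp1* was lower in the supported cells there too, at 35.5 against 382 CPM (−3.43). The venous genes did not share the low level of *Gpihbp1*. Over both clusters *Lrg1* was at 620 against 367 CPM (0.76, 0.55 to 0.96) and *Selp* at 1271 against 1391 CPM (−0.13, −0.27 to 0.01). Within the *Fabp4* and *Gpihbp1* cluster *Lrg1* was at 712 against 554 CPM (0.36, 0.16 to 0.56). The next 2 ratios are over both clusters. *Cd36*, the fatty acid carrier, was at 303 against 1151 CPM (−1.93) and *Fbln5*, an elastic fibre gene, at 264 against 775 CPM (−1.56). In a finer clustering, at resolution 1.2, a VEC cluster led by *Selp* and *Ackr1* held 17 supported of 516 cells of both libraries (3.29%).

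Fibroblasts had no supported cell in Control, 0 of 2612, which allows a share of up to 0.115%. AngII+HS had 23 of 4732. Called cells were 4 (0.153%, 0.0417 to 0.392%) and 33 (0.697%, 0.481 to 0.978%), a log2 ratio of 2.19 (0.70 to 4.15), at median depths of 3192.5 and 5120 UMIs. Thinned to 2000 UMIs, the called shares were 0.0591% and 0.261%. The called fibroblasts of AngII+HS had a median of 23 UMIs of the other G2/M genes. The highest share was in cluster 20, present in AngII+HS alone and led by *Prg4*, *Mmp13*, *Timp1* and *Grem1*, with 9 supported of 179 cells (5.03%, 2.32 to 9.33%) at a median of 13936 UMIs. A further 8 were in the 829 cells of the cluster with *Scara5* and *Ccl11*, at a median of 4120 UMIs. Thinned to 2000 UMIs, the called share of cluster 20 was 1.74% (0.361 to 5.01%). Its interval overlapped that of the *Scara5* and *Ccl11* cluster (0.427%, 0.0881 to 1.24%). The ratios that follow pool all fibroblast clusters. *Cthrc1*, a gene of activated matrix-producing fibroblasts, was at 387 CPM in the supported fibroblasts against 90.8 in the others (2.09, 1.88 to 2.30), while the adventitial progenitor gene *Pi16* was at 148 against 475 CPM (−1.68). Collagen gene *Col1a1* (−0.93) and *Postn*, a matricellular gene (−0.50), were lower too.

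VSMCs, the contractile cells of the media, were the largest type of Control and had few cycling cells. There 22 of 5071 were called (0.434%, 0.272 to 0.656%) at a median depth of 9942 UMIs, 15 of them by *Top2a* alone, and 16 of the 22 had at most 1 UMI of the other G2/M genes. In AngII+HS 7 of 633 were called (1.11%, 0.446 to 2.27%) at a median of 9209 UMIs, and the log2 ratio of 1.35 had an interval from −0.12 to 2.63. Supported cells were 3 (0.0592%, 0.0122 to 0.173%) and 5 (0.790%), a log2 ratio of 3.74 (1.38 to 6.43), and the thinned called shares were 0.0593% and 0.159%. LECs had 3 called of 137 cells in Control and 0 of 150 in AngII+HS, and neural cells 1 of 149 and 2 of 449, with 1 supported LEC or neural cell in all, a neural cell of AngII+HS. The unnamed clusters held 9 called cells of 673 in AngII+HS, 7 of them supported, and 1 of 628 in Control.

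The balance of S phase and G2/M genes differed between lineages. Over the supported cells of AngII+HS the 17 G1/S and S phase members had 0.707 UMIs for each UMI of the 24 G2/M members. The ratio was lowest in plasma cells, 0.260 (145 against 557 UMIs), where 1 of 16 cells had more S phase than G2/M UMIs. Macrophages had 0.499 (864 against 1731 UMIs), with 15 of 63 cells on the S phase side, and VECs had 0.573, with 8 of 20. DCs had 0.702, fibroblasts 0.837 with 12 of 23 cells and T cells 0.868 with 5 of 20. B cells had 1.24 (1186 against 956 UMIs), with 15 of 23 cells on the S phase side, and the 5 VSMCs had 1.61. Since support was defined by G2/M UMIs, cells in early S phase were not counted in any lineage.

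**Figure D3:**
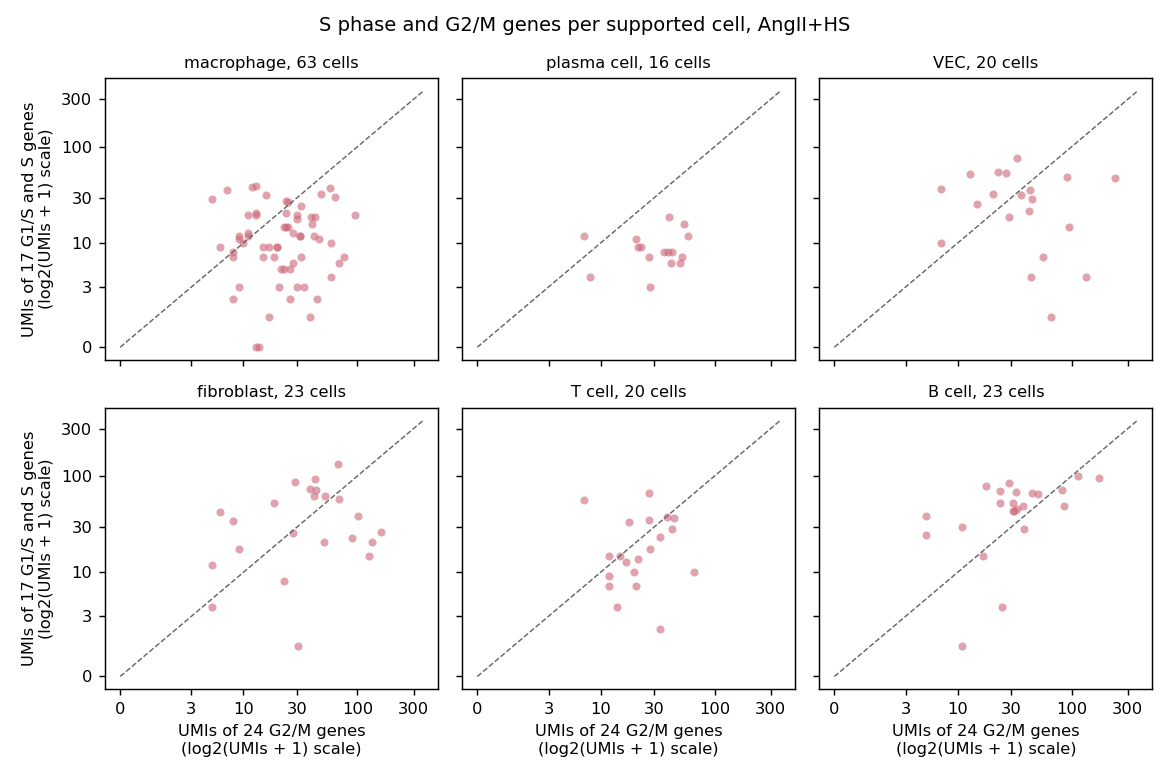
Each point is a G2/M-supported cell of the AngII+HS library, by its UMIs of the 24 G2/M genes (horizontal) and of the 17 G1/S and S genes (vertical), both as log2 of UMIs + 1, with the line of equal UMIs dashed. All plasma cells but 1 lie on the G2/M side, and 15 of 23 B cells lie above the line.

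Over all cells, 31 of 44 members were at least 2-fold higher in AngII+HS by CPM and 1 was at least 2-fold lower, against 20.5% and 11.7% of all 20360 genes with at least 20 UMIs. The median log2 ratio of the members was 1.5 and that of all genes 0.05. These ratios pool all cell types, and the mix of types was not held equal in them. Summed over the members, the level went from 235 to 507 CPM, a log2 ratio of 1.11 (1.08 to 1.13). With each cell given equal weight, the median of all genes was at −0.09 and 21 members were at least 2-fold higher, against 18.2% of all genes. Under that weight the log2 ratio of *Cdk1* was 2.53, of *Aurkb* 1.99, of *Cenpf* 1.89, of *Plk1* 0.43 and of *Uhrf1* 0.21, the members whose ratio fell by more than 1.

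The proliferation markers were both higher. *Mki67* (chromosome 7, 135291513 to 135318299, GRCm39) went from 3.14 to 23.6 CPM, a log2 ratio of 2.91 (2.71 to 3.11). *Top2a* (chromosome 11, 98883769 to 98915062) went from 3.20 to 22.3 CPM (2.80, 2.6 to 3.0). Called cells held 67.4% and 79.0% of their UMIs in both libraries, as the call fixes in part.

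The E-type cyclins of the G1/S switch were lower in AngII+HS over all cells, with the mix of types not held equal. *Ccne1*, the cyclin E1 gene, was at 8.17 CPM in Control and 3.77 in AngII+HS (log2 ratio −1.12, −1.32 to −0.92), and *Ccne2*, cyclin E2, at 8.0 and 4.40 (−0.86). Only 8.28% and 14.3% of their UMIs lay in called cells. VSMCs held 508 of the 615 *Ccne1* UMIs and 486 of the 602 *Ccne2* UMIs of Control. In VSMCs *Ccne1* was at 9.60 and 3.01 CPM and *Ccne2* at 9.18 and 3.68 CPM. Other types did not share one direction, with *Ccne1* at 4.47 and 6.02 CPM in fibroblasts and 3.94 and 2.33 in VECs. *Ccne2* was higher still in the plasma cells (15.7 CPM), T cells (15.0 CPM) and B cells (14.2 CPM) of AngII+HS. In Control it was at 6.37 CPM in T cells, on 4 UMIs, and had 0 UMIs in B cells. *E2f1*, the transcription factor that starts S phase, went from 3.97 to 8.62 CPM over all cells (1.12). Within types it went from 3.71 to 7.0 CPM in VECs, 9.05 to 10.7 in fibroblasts and 2.49 to 3.18 in VSMCs. It was lower in AngII+HS in macrophages (16.7 to 11.3 CPM), T cells (7.96 to 6.96) and B cells (23.9 to 7.09, on 8 UMIs in Control).

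Of 10 replication genes, 5 were at least 2-fold higher, with a median log2 ratio of 1.3. *Pclaf*, the PCNA clamp associated factor, had the widest ratio of all members, 0.917 to 15.2 CPM (4.06, 3.71 to 4.43), with 86.8% of its UMIs in called cells. The helicase subunits differed from each other. *Mcm5* went from 1.5 to 6.72 CPM (2.16), *Mcm2* had a log2 ratio of 1.78 and *Mcm3* of 1.65, whereas *Mcm7* had 0.93, *Mcm4* 0.34 and *Mcm6* −0.14 (20.2 to 18.3 CPM, −0.24 to −0.03). Within types *Mcm6* went from 22.2 to 32.1 CPM in VSMCs, 17.4 to 24.3 in VECs and 8.35 to 11.3 in macrophages. In fibroblasts it was at 12.2 and 12.4 CPM, and it was lower in AngII+HS only in DCs (16.8 to 14.3) and LECs (12.2 to 11.6). *Mcm4* was at −0.09 with equal weight per cell. *Uhrf1*, which keeps DNA methylation on the new strand, had 1.66 and *Gins2*, a subunit of the active helicase, 0.96. *Pcna*, the sliding clamp that also acts in repair, was at 61.9 and 85.5 CPM (0.47), with 8.30% of its UMIs in called cells.

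Of 4 genes of nucleotide supply, 3 were at least 2-fold higher. The thymidine kinase gene *Tk1* had a log2 ratio of 1.25, the thymidylate synthase gene *Tyms* 1.07 and *Rrm2*, the cycle-regulated subunit of ribonucleotide reductase, 1.05. The large subunit *Rrm1* had 0.49. With equal weight per cell these 4 ratios were between 0.02 and 0.31.

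The G2/M cyclins and kinases showed wide ratios, with 8 of 9 at least 2-fold higher, a median log2 ratio of 2.41 and 8.78 to 33.8 CPM in sum. *Cdk1*, the mitotic kinase, went from 0.545 to 8.42 CPM (3.95, 3.49 to 4.44). *Bub1*, a spindle checkpoint kinase, had 9 UMIs in Control and 131 in AngII+HS (3.77), and *Aurkb*, the Aurora B kinase of the centromere, had a log2 ratio of 3.33. Cyclins *Ccna2* and *Ccnb1* had 2.80 and 2.41, and *Plk1*, the Polo-like kinase, 1.73. The checkpoint gene *Bub1b* at 1.13, Aurora A (*Aurka*) at 1.05 and cyclin *Ccnb2* at 0.99 had lower ratios.

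All 5 genes of the centromere and the chromosomal passenger complex were at least 2-fold higher, with 12.0 to 55.9 CPM in sum. *Cdca8*, the borealin gene, and *Cenpf*, a kinetochore protein gene, had log2 ratios of 2.93 and 2.92. *Birc5*, the survivin gene, had 1.90 and the motor gene *Cenpe* 1.56. *Cenpa*, the centromeric histone H3, went from 5.81 to 28.6 CPM (2.30), yet only 19.4% of its UMIs lay in called cells. The mix of types was not held equal in that ratio. Within types *Cenpa* went from 29.7 to 33.1 CPM in macrophages, 126 to 141 in B cells and 98.7 to 111 in T cells. It went from 2.46 to 2.68 CPM in VSMCs, 11.4 to 19.3 in VECs and 3.05 to 7.79 in fibroblasts.

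Of 8 spindle and cytokinesis genes 5 were at least 2-fold higher, with a median log2 ratio of 1.14. *Hmmr*, the hyaluronan receptor that acts at the spindle pole, had 3.55 and *Kif11*, the Eg5 motor, 1.72. *Stmn1*, the microtubule destabiliser stathmin, went from 25.1 to 68.1 CPM (1.44). The kinesin gene *Kif20a* had 1.2 and *Prc1*, the midzone bundler, 1.07, whereas *Nusap1*, a spindle binding protein gene, had 0.90, the cytokinesis motor *Kif23* 0.52 and the spindle assembly factor *Tpx2* 0.47. *Tpx2* was at −0.02 with equal weight per cell.

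The 3 genes of mitotic protein destruction differed from each other. *Ube2c*, the conjugating enzyme of the anaphase promoting complex, went from 1.41 to 11.9 CPM (3.08, 2.79 to 3.38), and *Cdca3*, which targets the Wee1 kinase, had 2.84. *Cdc20*, the activator of the same complex, was at 3.37 and 3.44 CPM (0.03, −0.22 to 0.28), and its log2 ratio lay between −0.67 and 0.39 over the scalings and cell filters tried. Only 33.0% of the *Cdc20* UMIs lay in called cells against 79.8% for *Ube2c*. VSMCs held 181 of the 254 *Cdc20* UMIs of Control, and the mix of types was not held equal here. Within types *Cdc20* went from 4.41 to 7.93 CPM in VECs and 1.53 to 2.41 in fibroblasts, but from 3.42 to 2.51 in VSMCs and 5.10 to 1.82 in macrophages. Both promoters shown above hold a CHR and CCAAT boxes, and a link of these letters to the levels was not tested. The plot of the members sets each ratio beside the share of UMIs in called cells.

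**Figure D4:**
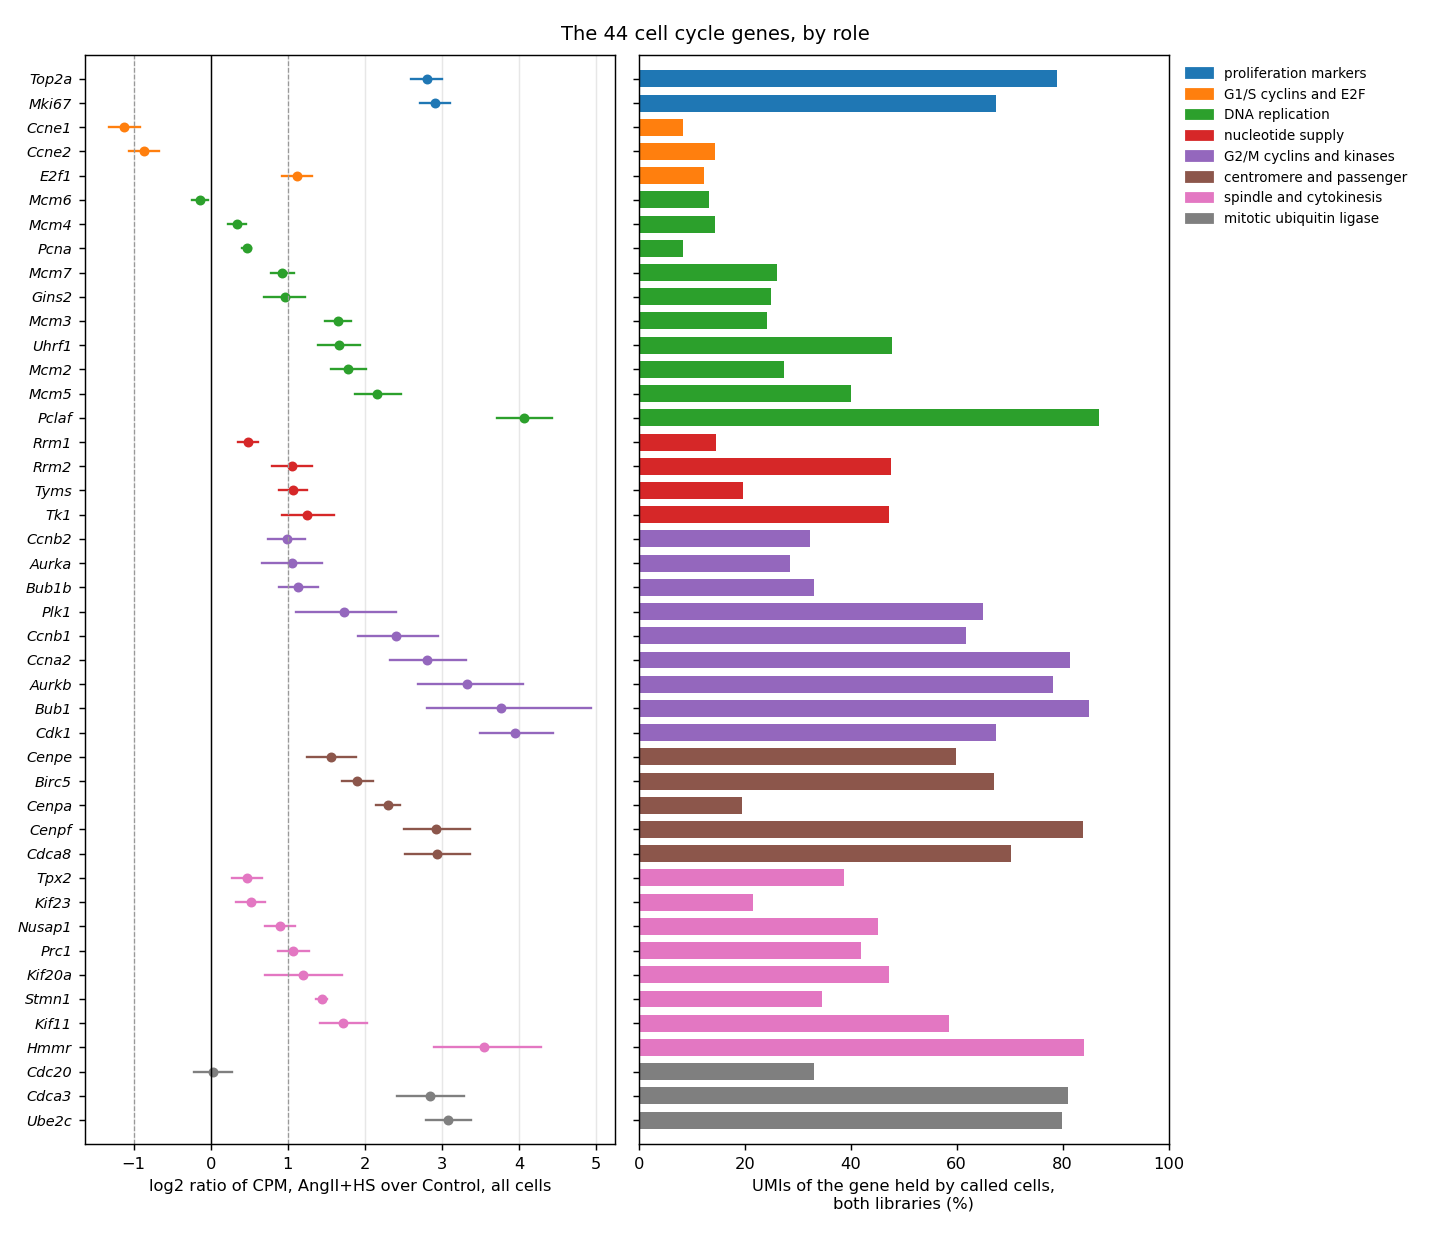
The 44 genes by role, with the log2 ratio of CPM over all cells (left, points with exact 95% intervals for counting error, dashed lines at 2-fold) and the percentage of the UMIs of each gene in called cells of both libraries (right, bars). The widest ratios belong to *Pclaf*, *Cdk1*, *Bub1* and *Hmmr*, of whose UMIs 67.4% or more lay in called cells, and the only negative ratios to *Ccne1*, *Ccne2* and *Mcm6*.

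Within cell types the same genes separated the libraries to different extents. In VECs 29 of 44 members, 3 of which had fewer than 20 UMIs, were at least 2-fold higher in AngII+HS, against 8.45% of all genes. *Cdk1* went from 0.696 to 19.8 CPM, *Pclaf* from 1.62 to 24.9, *Top2a* from 4.87 to 32.5 and *Mcm5* from 2.78 to 14. *Hmmr* and *Aurkb* had 0 UMIs in Control VECs and were at least 10.1-fold and 4.92-fold higher at 7.0 and 3.42 CPM, by a limit of 3 counts in the Control cells of the type. In fibroblasts 24 of 44 members were at least 2-fold higher, against 7.99% of all genes, with a median of 1.25. *Pclaf* went from 0 UMIs to 6.76 CPM (at least 22.2-fold higher), *Cdk1* from 0.203 to 7.12 CPM, *Ube2c* from 0.610 to 6.62 CPM and *Top2a* from 1.32 to 9.03 CPM. Few cells held most of these UMIs. In AngII+HS, 146 of 191 fibroblast UMIs of *Pclaf* lay in the 23 supported fibroblasts. Of 45 VEC UMIs of *Hmmr*, 40 lay in the 20 supported VECs. The limits count UMIs and not cells, so they do not cover the spread between cells.

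In macrophages 6 of 44 members were at least 2-fold higher, against 11.8% of all genes, and the median of the members was 0.33. The share of members at least 2-fold higher was thus near that of all genes. *Pclaf* went from 2.78 to 12.8 CPM, *Top2a* from 6.96 to 26.9, *Cdk1* from 2.32 to 8.05 and *Mki67* from 23.2 to 42.5. Other members were lower in AngII+HS by at least 2-fold. *Cdc20* went from 5.10 to 1.82 CPM, *Ccne1* from 4.18 to 1.76, *Kif20a* from 2.78 to 1.14 and *Plk1* from 2.32 to 1.04. The small Control group of 477 cells makes each of these ratios imprecise. In VSMCs 6 of 44 members were at least 2-fold higher and 6 at least 2-fold lower, against 5.99% and 13.5% of all genes, and 4 had fewer than 20 UMIs. *Kif23* was at 4.86 CPM in the VSMCs of Control and 2.01 in those of AngII+HS. In VSMCs the higher and lower members were thus equal in number, although fewer of all genes were higher there than lower. In VECs and fibroblasts most members were at least 2-fold higher.

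Within AngII+HS the other 42 members were set against the call itself in the cell types where all 42 had at least 20 UMIs. In called macrophages 41 of 42 were at least 2-fold higher than in other macrophages, against 7.45% of all genes, with a median log2 ratio of 4.35. In called fibroblasts it was 42 of 42, against 15.5% of all genes, with a median of 5.16. By CPM summed over the called cells, the call thus went along with the remaining members in both types. This did not hold for each cell. At most 1 UMI of the other G2/M genes was found in 104 of 183 called macrophages and in 6 of 33 called fibroblasts.

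Several members were also present in cells that were not called. *Mki67* in uncalled cells of AngII+HS was at 16.8 CPM (15.0 to 18.8) in macrophages, 16.7 in neutrophils and 19.3 in DCs, against 5.51 in VECs, 4.53 in T cells, 2.30 in B cells, 1.99 in fibroblasts and 1.02 in VSMCs. *Top2a* had another order there, with 20.8 CPM in T cells, 11.1 in B cells, 4.90 in macrophages and 3.74 in neutrophils. *Mki67* in uncalled cells was thus highest in the 3 myeloid types, and the source of these UMIs was not tested. *Cenpa* in uncalled cells was at 147 CPM in DCs, 133 in B cells and 103 in T cells, against 27.4 in macrophages and 2.37 in VSMCs. *Kif23* was at 30.6 CPM in T cells and 18.2 in neutrophils. *Stmn1* was at 381 CPM in the uncalled neural cells and *Pcna* at 29.1 CPM or more in all types, with the uncalled cells of both libraries pooled. The plot of levels in uncalled cells shows these differences for all members.

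**Figure D5:**
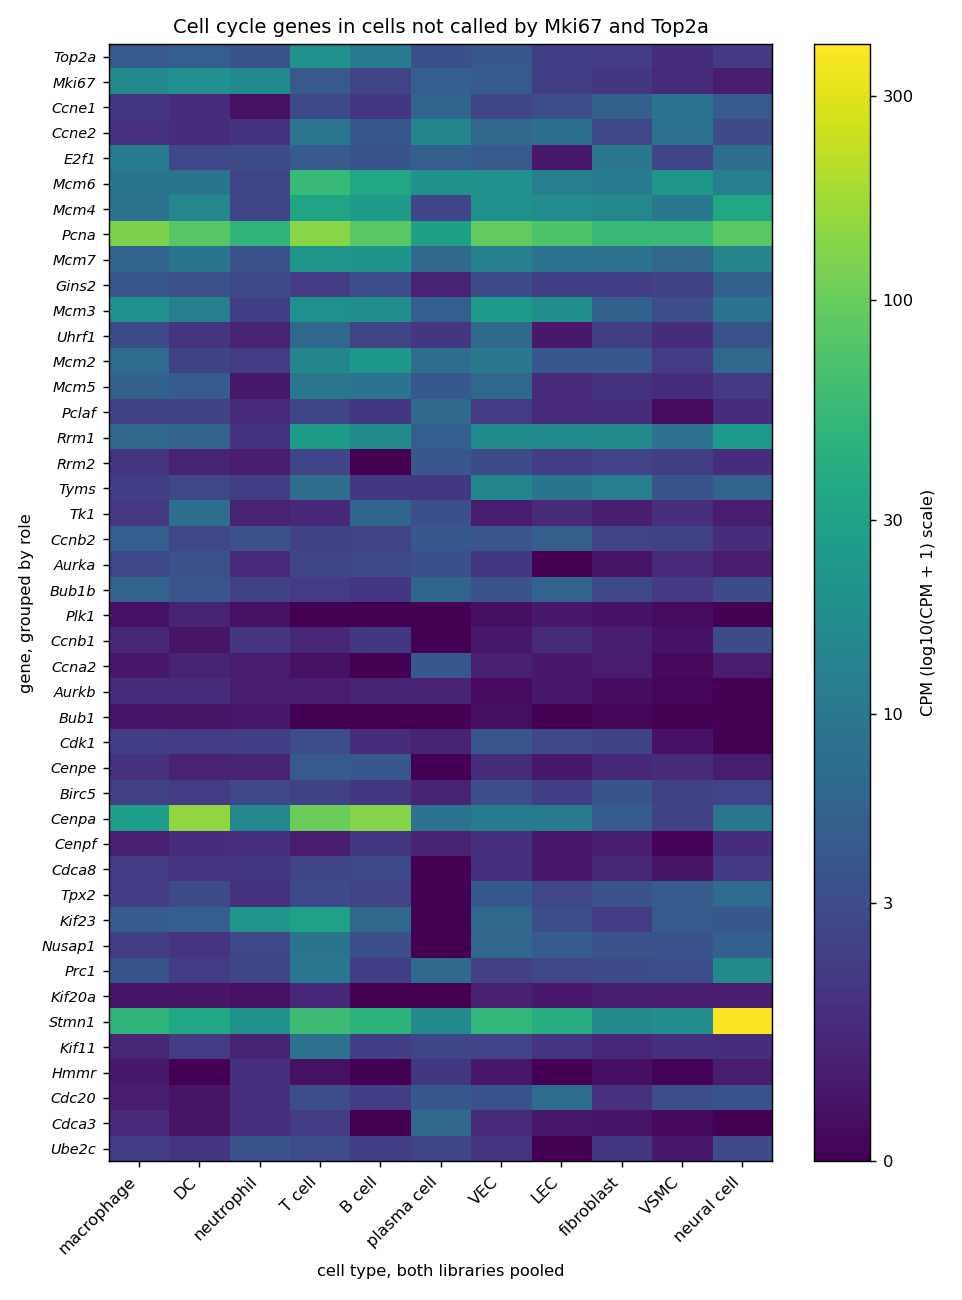
Level of each member (rows, grouped by role) in the cells of each type that were not called, both libraries pooled, in CPM on a log10(CPM + 1) colour scale. *Pcna* is present in all types, *Stmn1* is highest in neural cells, *Cenpa* in DCs and lymphocytes, and *Mki67* in macrophages, DCs and neutrophils.

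The other genes of the pathway, 56 genes in 5 lists, were read in the same way. Between the libraries, over all cells, 20.5% of all genes were at least 2-fold higher in AngII+HS and 11.7% lower. Of 25 other mitotic genes 12 were at least 2-fold higher and 1 lower in this comparison. In supported cells 24 of the 25 were at least 2-fold higher than in the rest of that library, against 13.9% of all genes, with a median log2 ratio of 4.61. *Ckap2l*, a spindle gene, had a log2 ratio of 3.95 between the libraries, while *Anln*, an actin binding gene of the cleavage furrow, was at 37.3 and 11.6 CPM (−1.68). Of 8 origin licensing and firing genes 4 were at least 2-fold higher between libraries and all 8 in supported cells. Of 10 pocket protein, E2F and MuvB genes these counts were 4 and 7, with the repressor *E2f8* at a log2 ratio of 3.19 between libraries and *Foxm1*, the G2/M activator, at 34.1 CPM in supported cells against 1.13 in others.

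The lists of G1 regulators had the lowest median log2 ratios of the pathway lists between the libraries. They were 0.3 for G1 cyclins and CDKs and 0.29 for CDK inhibitors, over all cells with the mix of types not held equal. These medians join ratios of both directions. Of 6 G1 cyclins and CDKs 1 was at least 2-fold higher and 1 lower, with *Ccnd1* at 24.2 and 60.9 CPM (log2 ratio 1.33) and *Ccnd2* at 467 and 188 CPM (−1.31). Of 7 CDK inhibitors 1 was at least 2-fold higher. The p21 gene *Cdkn1a*, which halts the cycle, was at 459 and 561 CPM over all cells (0.29). Within types it went from 763 to 1136 CPM in macrophages and 754 to 766 in VECs, but from 439 to 297 in fibroblasts and 420 to 137 in VSMCs. In supported cells *Cdkn1a* was at 407 CPM against 566 in others, and the p57 gene *Cdkn1c* was lower in supported cells (−2.39). Against 24.2% of all genes, *Cdkn1c* was the only gene of the pathway lists at least 2-fold lower there. The inhibitors *Cdkn2a* (2.74), *Cdkn2c* (1.49) and *Cdkn2d* (1.2) and the kinases *Cdk2* (1.85), *Cdk4* (1.76) and *Cdk6* (1.13) were at least 2-fold higher in supported cells. All ratios of supported over other cells for the pathway lists pool all types, and the mix of types was not held equal. Neutrophils, for example, were 23.5% of the AngII+HS cells and none was supported.

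Genes outside these lists that stood highest in called over other macrophages of AngII+HS were the histone genes *H1f5* (log2 ratio 5.75), *H2ac8* (4.64) and *H4c4* (3.30), the formin *Diaph3* (3.67), the NKG2D ligand *Ulbp1* (3.33), the chromatin remodeller *Hells* (3.31), the repair helicase *Brip1* (3.13), the dUTPase *Dut* (3.09), the clamp unloader *Atad5* (2.84) and the inner centromere protein gene *Incenp* (2.70). The lowest were the haemoglobin genes *Hbb-bs* (−4.12) and *Hba-a1* (−3.78), which are genes of red blood cells, followed by *Retnla* (−2.92) and *Clec10a* (−2.30), genes of alternatively activated macrophages, and the monocyte gene *Ly6c2* (−2.06).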

How the data were processed

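The authors deposited raw UMI counts per gene and barcode; they had not been scaled, and no cells or doublets had been taken out. The file headers name Cell Ranger 8.0.1 (the methods give another version), the labels name the mm10 build and the methods GRCm39. The libraries had 86618995 (Control) and 117146856 (AngII+HS) UMIs in 11448 and 24804 barcodes. No column of the deposited tables was left unused, and the barcode lists served only to count shared entries.

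A minimum of 500 UMIs and 200 genes and a mitochondrial share below 20% left 11288 and 24560 barcodes. Scrublet (scanpy 1.11.5) ranked cells, and 0.8% per 1000 cells were removed as doublets, 1019 (9.03%) in Control and 4826 (19.6%) in AngII+HS. Cells were integrated and clustered in Seurat 5.3.0 (R 4.3.3) with 2000 variable genes, 30 components and resolution 0.8, after 100 listed cell cycle genes had been left out. Clusters were named by marker lists, from which *Cdca3*, a macrophage marker of the study and a member here, was left out.

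Shares have Clopper-Pearson intervals, CPM Poisson intervals and ratios exact conditional binomial intervals, all at 95%, computed with Python 3.11.15, numpy 2.4.6, pandas 2.3.3 and scipy 1.17.1 and drawn with matplotlib 3.10.9. Since PCR copies are collapsed by UMI, they cover the counting of molecules only. With 1 library per group no test was run. A count of 0 was read as a limit of 3 counts over the group. Genes needed 20 UMIs over both groups. Levels of different genes were not compared, because the 3′ assay gives no level per length. Antisense neighbours overlap *Ccne1*, *Ccne2*, *Pcna*, *Mcm7*, *Gins2*, *Pclaf*, *Tk1*, *Cdk1*, *Ccna2*, *Aurka*, *Cdca8*, *Kif20a*, *Nusap1*, *Prc1*, *Stmn1*, *Cdc20*, *Ube2c* and *Cdca3*, and the kit is stranded. TMM factors came from edgeR 4.0.16.

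The members, gene lists and groupings were chosen with earlier results of these data known. All 44 members could be named. Other named genes came from fixed pathway and state lists, of which 1 gene is not reported here, and outside them were the 10 highest and 5 lowest genes in called over other AngII+HS macrophages, with at least 100 and 1000 UMIs. The alternatives were other UMI limits, thinning, another gene set, cell filters, doublet removal, clusterings and scalings.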

Additional observations from a re-analysis of the deposited data

Results flagged for a closer look

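Some members had log2 ratios of opposite direction in VSMCs and in another cell type, with intervals that did not hold 0 in either, and the differences between cell types were not tested. *Stmn1* was lower in the VSMCs of AngII+HS (−0.53, −0.86 to −0.21) and higher in its macrophages (0.95), fibroblasts (1.41) and VECs (1.36). *Kif23* was at −1.27 in VSMCs and 0.94 in VECs, *Rrm1* at −0.73 in VSMCs and 0.81 in VECs, and *Mcm4* at −0.62 in VSMCs and 0.79 in macrophages.

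The barcodes removed as doublets, which enter no comparison above, held many cycling cells. In AngII+HS 236 called and 137 supported barcodes were removed, against 7 and 4 in Control. They were 36.3% of the called barcodes of AngII+HS and 11.7% of those of Control, and had a median of 11688 UMIs in AngII+HS, against 6158 over all of its removed barcodes. Whether these barcodes held single dividing cells was not tested.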

How the results depend on the processing

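None of the 8 results below changed direction, although with equal weight per cell the single ratios of *Mcm4* (−0.09), *Tpx2* (−0.02) and *Cdc20* (−0.67) turned negative. The called share of all cells, at a log2 ratio of 2.02, went to 1.36 with a limit of 1 UMI, 3.01 with 3 UMIs, 3.18 and 4.06 with cells thinned to 2000 and 1000 UMIs, and, in the classes chosen after the data were seen, to 2.84 for supported cells, 2.94 without *Cenpa* and 3.07 with no doublets removed. Macrophages went from 1.3 to 0.05 when called by at least 5 UMIs of the other G2/M genes, a readout without *Mki67* and *Top2a*. Fibroblasts went from 2.19 to 4.71 for supported cells with no doublets removed, and VSMCs from 1.35 to 3.42 with 3 UMIs, 3.74 for supported cells with or without *Cenpa* and 4.46 with no doublets removed. VECs kept to the spread of their interval under all 14 alternatives that gave a value. The macrophage share of 44.2% of called cells went to 36.8% when thinned to 1000 UMIs, 31.3% with 5 G2/M UMIs, 34.2% with no doublets removed, 53.6% with cell cycle genes kept in the clustering, 32.8% for supported cells with or without *Cenpa* and 22.2% for these with no doublets removed. The summed CPM ratio of 1.11 was 1.04 with TMM factors, 1.07 without mitochondrial genes, 0.70 with equal weight per cell and 1.28 with no doublets removed, and the members at least 2-fold higher numbered 21 to 34, with 35 at least 1.5-fold higher. No ratio could be had where Control had 0 cells, which was the case for macrophages, fibroblasts, VSMCs and VECs thinned to 1000 UMIs and for fibroblasts called by 5 G2/M UMIs or by support. No paired analysis was possible because each group has 1 library. Control had 14 supported cells in all, which limits each ratio of supported cells.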

Other observations

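With the 100 listed cell cycle genes left out of the clustering, no cluster of cycling cells formed. With these genes kept, cluster 24 gathered 122 cells, 112 of them from AngII+HS, of which 120 were called and 112 supported, and its markers named it macrophage. In that clustering the supported cells of AngII+HS numbered 102 in macrophages, 39 of 170 in plasma cells (22.9%), 1 in T cells, 2 in DCs and 0 in B cells, so the share of supported cells in these immune types depends on the clustering.

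With no doublets removed, fibroblasts gained 80 called and 51 supported barcodes in AngII+HS, macrophages 44 and 12, VECs 33 and 21, plasma cells 15 and 14 and VSMCs 11 and 10.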
